A study of Danio rerio with 2 samples.

Results

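To describe the *dlx*-expressing neurons of the larval zebrafish brain, cells were selected by their transcripts from single-cell RNA sequencing of whole brains at 3 days post-fertilization (dpf). A cell was a member when it had at least 1 unique molecular identifier (UMI, 1 counted mRNA molecule) each of 2 or more of *dlx1a*, *dlx2a*, *dlx5a* and *dlx6a*, at least 1 UMI of the neuronal genes *elavl3* or *elavl4*, and 0 UMIs of the collagen gene *col1a2*. The search covered barcodes in which 200 to 3000 genes were detected, with fewer than 20000 UMIs in all and less than 15% of them mitochondrial. The rule found 271 *dlx*-positive cells among 16661 barcodes. The study made 2 libraries of dissociated brains, 1 from siblings with the wt genotype and 1 from homozygous *rb1* mutants carrying the smu2 allele in both copies. Both came from 3 dpf larvae, were dissociated with the protease papain and were prepared with a 10x Genomics 3′ kit. *rb1* encodes the retinoblastoma protein, which holds back entry into S phase. With 1 library per genotype, a difference between the libraries could not be told apart from a difference between preparations, and no test was made. How many brains were pooled was not given in the sources used here. The label of both libraries gives the cell type as neuron, but 4249 of 8150 sibling barcodes and 4799 of 8511 mutant barcodes had a UMI of *elavl3* or *elavl4*.

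Dlx homeobox transcription factors are made in precursors and young neurons of the ventral forebrain, that is the subpallium of the telencephalon, the preoptic area, the hypothalamus and the prethalamus. There they switch on the genes of the GABAergic phenotype, among them the glutamate decarboxylases *gad1b* and *gad2*, which make the inhibitory transmitter GABA. The *dlx* genes lie in convergently transcribed pairs that share enhancers in vertebrates. In mammals, interneurons born in the ganglionic eminences depend on them and are sorted further by *Lhx6*, *Lhx8*, *Nkx2-1* and *Sp8*. Outside the brain, *dlx* genes are also expressed in the pharyngeal arches, from which the cartilage of the jaw forms.

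The sibling library had 134 *dlx*-positive cells and the mutant library had 137. These were 1.64% (95% Clopper-Pearson interval 1.38 to 1.94) and 1.61% (1.35 to 1.90) of the barcodes within the limits, and 3.15% and 2.85% of the cells with *elavl3* or *elavl4*. Depth was alike, with a median of 3963 UMIs per cell in siblings and 3961 in mutants, and totals of 547129 and 624662 UMIs. The share of *dlx*-positive cells therefore differed by less than the counting error. All intervals given here are 95% intervals that cover counting error only, and they are too narrow where a few cells hold most UMIs of a gene. The libraries shared 15 barcode sequences within the limits, and 0 of these were *dlx*-positive in both. Doublets were not removed, and 9 sibling and 12 mutant *dlx*-positive cells had a doublet score among the highest 7.5% of their library. For *rb1* itself, 3 UMIs were counted in sibling and 9 in mutant *dlx*-positive cells. In all other cells its level was 5.88 and 5.30 CPM, that is UMIs scaled to a total of 1000000 (ratio 0.902, 0.733 to 1.11). This 3′ count did not check the genotype label, since the lesion of the allele was not given in the sources used here.

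Because the 4 *dlx* genes chose the cells, their levels are a description. *dlx5a* was detected in 115 of 134 sibling and 126 of 137 mutant cells, *dlx2a* in 114 and 117, *dlx1a* in 71 and 80, and *dlx6a* in 63 and 60. Summed over the cells, *dlx5a* stood at 1084 CPM in siblings (998 to 1175) and 919 in mutants (845 to 997). *dlx2a* followed with 784 and 778 CPM, *dlx1a* with 364 and 359, and *dlx6a* with 245 and 207. Exactly 2 of the genes were found in 62 sibling and 55 mutant cells, 3 in 49 and 55, and all 4 in 23 and 27. The most frequent combinations were *dlx2a* with *dlx5a* (29 and 26 cells) and *dlx1a* with *dlx2a* and *dlx5a* (27 and 38 cells), while no cell of either library had *dlx1a* and *dlx6a* alone.

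**Figure D1:**
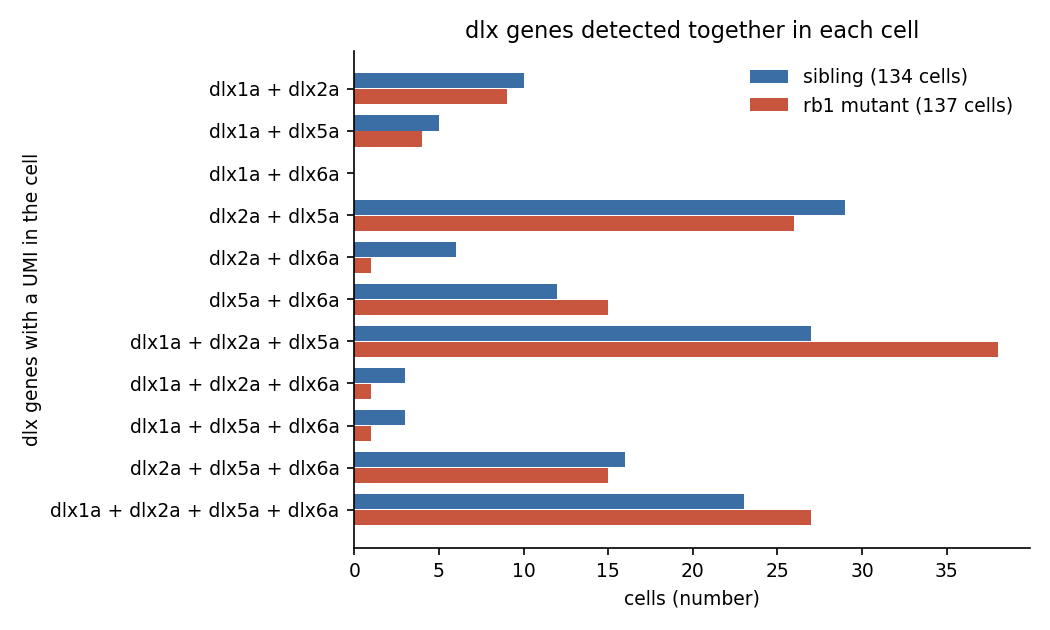
Number of *dlx*-positive cells (x axis) with each combination of *dlx1a*, *dlx2a*, *dlx5a* and *dlx6a* (y axis) in the sibling and the *rb1* mutant library. The combination of *dlx2a* with *dlx5a* was found in 29 sibling and 26 mutant cells, *dlx1a* with *dlx2a* and *dlx5a* in 27 and 38, and all 4 genes in 23 and 27.

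Genes that neighbour each other on the chromosome were often found in the same cell, and so were genes of different loci. In the RefSeq annotation of assembly GRCz12tu, *dlx1a* is next to *dlx2a* and *dlx5a* is next to *dlx6a*. Among all *elavl3*- or *elavl4*-positive cells without *col1a2* (4038 sibling and 4617 mutant cells), 63 of 73 sibling cells with *dlx1a* also had *dlx2a*, and 75 of 88 mutant cells did. Of the cells with *dlx6a*, 54 of 69 and 58 of 68 also had *dlx5a*. Pairs across the loci were frequent too, as 58 of 73 sibling and 70 of 88 mutant cells with *dlx1a* had *dlx5a*, whereas 29 of 73 and 29 of 88 had *dlx6a*. The genes differ in level and hence in how often 1 UMI is caught, and these shares are a description.

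Cells on either side of the cut at 2 *dlx* genes differed in some genes that the rule did not use and not in others. With exactly 1 *dlx* gene, 87 sibling and 95 mutant cells lay just outside, and the zinc finger gene *sp9* was found in 9.20% and 8.42% of them. With exactly 2 genes, just inside, *sp9* was found in 30.6% and 29.1%. The share of cells with *gad2* went from 27.6% and 22.1% to 38.7% and 41.8%. The share with *slc32a1* went from 28.7% to 25.8% in siblings and from 26.3% to 47.3% in mutants, and that with the GABA transporter gene *slc6a1b* from 31.0% to 43.5% and from 31.6% to 30.9%. Cells just outside had median depths of 3177 and 3625 UMIs and cells just inside of 3999.5 and 3789. In macrophages and endothelial cells, which should express none of these genes and gave a measure of free RNA (83 and 48 cells, median 7413 and 7613 UMIs), at least 1 *dlx* gene was found in 2.41% and 2.08%, 2 *dlx* genes in 0 of 83 and 0 of 48, *gad2* in 1.2% and 2.08%, and *foxg1a* in none. A UMI of *elavl3* or *elavl4* was found in 10.8% and 6.25% of these reference cells, so 1 such UMI alone did not mark a neuron. Among the *dlx*-positive cells, 11 sibling and 10 mutant cells had only 1 such UMI, and 89 and 87 had 5 or more.

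The cells were labelled as GABAergic neurons of the ventral forebrain, and a GABA marker was found in most, but not all, of them. *gad2* was detected in 73 sibling cells (54.5%) and 61 mutant cells (44.5%), *gad1b* in 33 and 20, and *slc32a1*, the transporter that loads GABA into vesicles, in 50 and 63. At least 1 of these 3 genes was found in 86 of 134 (64.2%, 55.4 to 72.3) and 88 of 137 cells (64.2%, 55.6 to 72.2). The remaining cells had *dlx* and *elavl* transcripts without a detected GABA marker, which at this depth does not show that the marker was absent. The vesicular glutamate transporters *slc17a6a* or *slc17a6b* were seen in 5 and 3 cells, and 0 cells had 3 or more macrophage or endothelium genes. Retinal genes (*crx*, *vsx1*, *atoh7*, *tfap2a*, *tfap2b* or *rx1*) were found in 11 and 8 cells. Tyrosine hydroxylase (*th*), the enzyme of the dopaminergic neurons of the olfactory bulb and hypothalamus, had 1 UMI in siblings and 0 in mutants.

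A small group of the cells carried cartilage genes. With a list chosen after these values were seen (*matn1*, *col2a1a*, *col9a1a*, *col9a2*, *col11a1a*, *cnmd*, *ucmab*, *epyc* and *snorc*), 6 cells in each library had 3 or more of the genes, and they held 99.8% of the cartilage UMIs of all *dlx*-positive cells in either library. Their median depth was 8534.5 UMIs in siblings and 10331.5 in mutants. None of the 12 had *gad1b*, *gad2*, *slc32a1*, *foxg1a* or *sp9*. Their median count of *elavl3* and *elavl4* UMIs was 1 and 1.5, against 8 in the other *dlx*-positive cells of each library, and *dlx5a* was found in 5 and 6 of them. By these markers the 12 cells went against the label. Some results that rest on them are given with and without them, and all others include them. Without them 128 sibling and 131 mutant cells remained.

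Next, the *dlx*-positive cells were compared within each library with *dlx*-negative GABAergic neurons (635 sibling and 561 mutant cells, median 3627 and 4092 UMIs). These were cells with *gad1b* or *gad2* and *elavl3* or *elavl4* but with 0 UMIs of the 4 *dlx* genes and *col1a2*. The retinal genes named above were found in 39.5% and 39.2% of these, so part of this class may be retinal. By definition every cell of the *dlx*-negative class had *gad1b* or *gad2*, against 57.5% of sibling and 48.2% of mutant *dlx*-positive cells. The classes thus also differed in *gad* detection, and the part of this in the values below was not tested. The rule chose the cells by measured genes, and the comparison is a description. Genes with 50 or more UMIs in a comparison are called tested genes here, although no statistical test was made. Of 7440 such genes, 161 (2.16%) were at least 2-fold higher in the *dlx*-positive cells in both libraries and 347 (4.66%) were at least 2-fold lower in both. Without the cells with cartilage genes the first count was 105, an alternative chosen after seeing the data. The *dlx*-negative class held 2390014 and 2424273 UMIs, against 547129 and 624662 in the *dlx*-positive cells. A gene could thus pass the minimum through the *dlx*-negative class alone. The part of this in the counts of 161 and 347 was not tested.

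Of 13 tested genes on the list of Dlx genes and their partner transcription factors, 12 were at least 2-fold higher, of which 4 are the genes of the rule. *gsx1*, a homeobox gene of ventral precursors, had 93 and 150 UMIs in the *dlx*-positive cells and 3 and 0 in the much larger *dlx*-negative class. *sp8a* had 32 and 28 UMIs against 0 and 0, and *dlx2b*, the paralogue of *dlx2a*, 47 and 64 against 3 and 0. *sp9* differed 11.7-fold (8.16 to 17.0) in siblings and 10.9-fold (7.53 to 16.2) in mutants. The exception was *meis2a*, which was lower in the *dlx*-positive cells, with ratios of 0.258 and 0.220, and whose symbol stands for more than 1 gene row.

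Genes listed here as telencephalic were found in many of the cells, which by itself does not place a cell in the telencephalon. *foxg1a*, the forkhead factor of the telencephalon, was found in 37 sibling and 40 mutant cells, and any of *foxg1a*, *lhx6*, *lhx8a*, *nkx2.1* and *emx3* in 56 of 134 and 59 of 137, against 33 of 635 and 25 of 561 *dlx*-negative GABAergic neurons. Of 21 tested telencephalic factors, 6 were at least 2-fold higher (*foxg1a*, *lhx6*, *lhx8a*, *nkx2.1*, *etv1* and *npas1*) and 4 were lower (*emx2*, *foxg1b*, *mafb* and *tshz1*). *lhx6*, a LIM homeobox gene of interneurons from the medial ganglionic eminence in mammals, stood at 154 CPM in sibling and 210 CPM in mutant *dlx*-positive cells against 3.77 and 0.825. *foxg1a* stood at 161 and 213 CPM against 17.6 and 16.5.

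Of 28 tested factors of the hypothalamus, preoptic area and prethalamus, 5 were higher (*nkx2.4a*, *nkx2.4b*, *hmx3a*, *isl1* and *vax1*) and 9 were lower. *nkx2.4b*, a homeobox gene of the hypothalamus, stood at 148 and 125 CPM against 2.93 and 7.01. The genes that were lower included *otpa*, which specifies neuroendocrine neurons of the hypothalamus, with 2 and 6 UMIs against 1449 and 1429, and *lhx1a* with ratios of 0.315 and 0.246. Factors of GABAergic neurons behind the forebrain were nearly absent. Of 15 tested, 14 were at least 2-fold lower, among them *tal1* (1 and 2 UMIs against 470 and 296), *gata3* (1 and 0 against 200 and 184), *pax2a* (2 and 1 against 388 and 322) and *en1b* (0 and 0 against 237 and 293). The retinal *tfap2a* had 5 and 6 UMIs against 749 and 752.

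**Figure D2:**
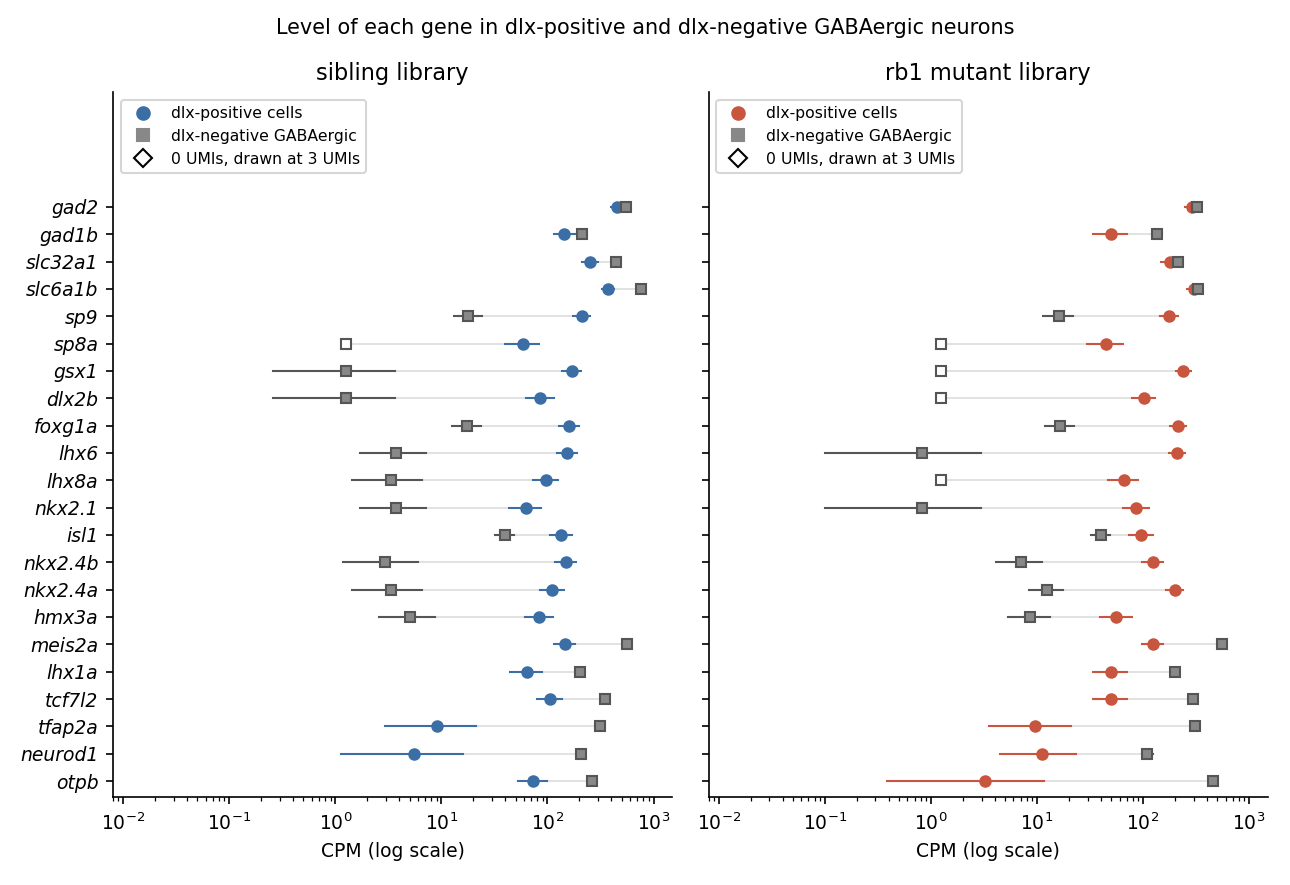
Level of each gene in CPM (log scale) in *dlx*-positive cells (circles) and *dlx*-negative GABAergic neurons (squares) of the sibling (left) and *rb1* mutant library (right), with 95% Poisson intervals and open symbols for 0 UMIs drawn at 3 UMIs. *lhx6* stood at 154 and 210 CPM against 3.77 and 0.825, while *tfap2a* and *neurod1* were lower in the *dlx*-positive cells.

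GABA genes themselves did not reach 2-fold in either direction in both libraries. 0 of 6 tested genes were higher and 0 of 6 were lower, although the *dlx*-negative class was chosen by *gad1b* or *gad2*. *gad2* stood at 449.6 CPM in sibling *dlx*-positive cells and 553 CPM in *dlx*-negative GABAergic neurons, and at 289.8 and 325 CPM in mutants. *gad1b* was lower, with 144 against 211 CPM in siblings and 49.6 against 135 in mutants. Compared with glutamatergic neurons (cells with *slc17a6a* or *slc17a6b*, with *elavl3* or *elavl4*, and without the *dlx* and *gad* genes, 824 and 702 cells), 4 of 6 GABA genes were higher in both libraries, of which *gad1b* and *gad2* were used to define that class. Of 8179 genes tested there, 173 (2.12%) were higher and 557 (6.81%) lower. The glutamatergic class was also the larger one, with 2989650 and 2747622 UMIs. *slc32a1*, which defined neither class, stood at 254 and 179 CPM against 5.02 and 5.46 in glutamatergic neurons.

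Further genes that led the comparison with *dlx*-negative GABAergic neurons, once the cells with cartilage genes were left out, were IAPP, *synpr*, *galn*, *etv1*, *lhx8a* and *pyyb*. The vesicle protein gene *synpr* had 73 and 91 UMIs in 3 sibling and 5 mutant cells and 0 in *dlx*-negative GABAergic neurons. IAPP, listed under the symbol of the human islet peptide, had 7 UMIs in 2 sibling cells and 49 in 3 mutant cells. With the cartilage cells included, *tnxba*, *col9a1a*, *col11a1a*, *matn1*, *col9a2*, *mia*, *otos* and *pcolceb* made up 8 of the 15 leading genes. At the other end, 46 of the 7440 tested genes had 0 UMIs in the *dlx*-positive cells of both libraries. Among them were *dmbx1a* and *ebf2* with 90 and 57 UMIs in sibling *dlx*-negative GABAergic neurons. These genes passed the minimum through the larger *dlx*-negative class alone.

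Patterning genes differed in how often they were found in the same *dlx*-positive cells. *nkx2.4a* (17 sibling and 32 mutant cells) and *foxg1a* (37 and 40 cells) were not found together in any of the 271 cells, a count of 0 that allows, at 3 cells of the total, a share of cells with UMIs of both of up to 2.24% in siblings and 2.19% in mutants. A missing UMI at this depth does not show that a gene was off. Any of *foxg1a*, *nkx2.4a*, *nkx2.4b* and *isl1* was found in 76 of 134 and 86 of 137 cells. *isl1*, the LIM homeobox gene found in striatal-type and hypothalamic neurons, was found in 5 of the 37 sibling and 4 of the 40 mutant cells with *foxg1a*. Over all *dlx*-positive cells, 99 of 134 and 111 of 137 had no UMI of *isl1*.

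*lhx6* was found in 12 of 37 sibling and 10 of 40 mutant cells with *foxg1a*, against 7.22% and 9.28% of the cells without it. *etv1* was found in 7 of 37 and 10 of 40 cells with *foxg1a* and in 5.15% and 6.19% of those without. *gsx1* showed the opposite order, with 0 of 37 and 2 of 40 cells with *foxg1a* against 11.3% and 21.6% without. Median depths were 3903 and 4087 UMIs with *foxg1a* and 3975 and 3940 without.

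Cells with *isl1* (35 and 26) had *gsx1* in 25.7% and 34.6%, against 2.02% and 12.6% of cells without *isl1*. *hmx3a*, a homeobox gene of the hypothalamus, was found in 34.3% and 30.8% against 5.05% and 9.91%, and *gap43*, which marks growing axons, in 80.0% and 88.5% against 54.5% and 45.9%. *lhx6* was found in 2.86% and 3.85% of cells with *isl1* against 18.2% and 16.2% of those without, and *sp9* in 7 of 35 and 6 of 26 cells against 42.4% and 38.7%. These splits rest on few cells, and each of these orders was the same in both libraries.

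Some genes were detected at different rates in cells with and without *gad1b* or *gad2*. *snap25a*, a protein of transmitter release, was found in 71.4% of sibling and 54.5% of mutant cells with a *gad* gene and in 35.1% and 21.1% of those without. The axon growth gene *stmn2a* was found in 74.0% and 71.2% against 43.9% and 47.9%. *fabp7a*, a lipid-binding protein of radial glia, went the other way, with 14.3% and 15.2% against 31.6% and 35.2%, as did the Delta ligand gene *dla*, with 3.90% and 12.1% against 19.3% and 22.5%. Median depth was slightly lower in cells with a *gad* gene (3870 and 3823.5 UMIs) than in those without (4054 and 4370). The 6 cells with cartilage genes of each library, with median depths of 8534.5 and 10331.5 UMIs, all lay among those without. Their part in these values was not tested.

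To address how loss of *rb1* relates to these cells, mutant and sibling *dlx*-positive cells were compared gene by gene. At least 2-fold higher in mutants were 29 of 31 tested cell cycle genes and 9 of 20 genes of neural precursors and Notch signalling, 7 of them *her* genes. At least 2-fold lower were 2 of 6 GABA genes and 4 of 9 neuropeptide genes. Only 1 of 19 synapse genes was at least 2-fold lower, and 0 of 11 Dlx genes and partners passed 2-fold in either direction. Of 2670 genes with 50 or more UMIs, 102 (3.82%) were at least 2-fold higher in mutants and 92 (3.45%) at least 2-fold lower. The median ratio over these genes was 0.930, that is -0.11 on the log2 scale. The minimum of 50 UMIs was summed over both libraries, so a gene with few UMIs in 1 library could pass it through the other. The part of this in the counts by list was not tested. The median ratio of each list in all other neurons is given beside that in the *dlx*-positive cells.

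**Figure D3:**
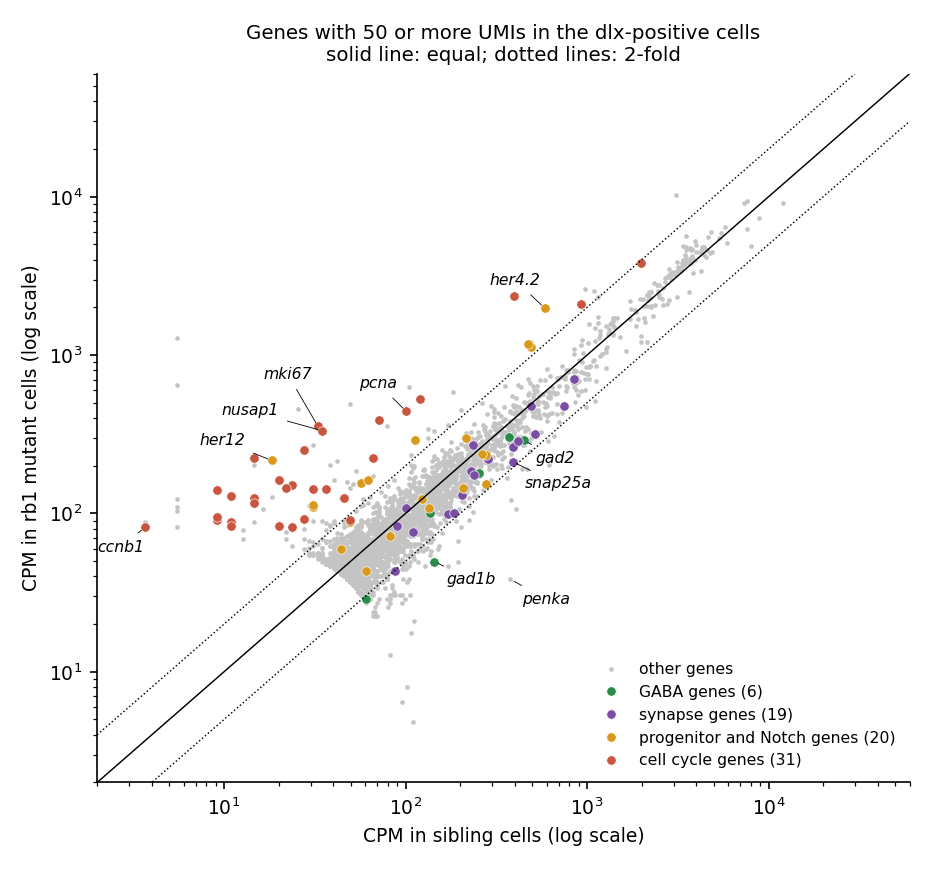
Level of each gene with 50 or more UMIs in sibling (x axis) and *rb1* mutant *dlx*-positive cells (y axis), in CPM on log scales. Of the 31 cell cycle genes, 29 lay above the upper 2-fold line, and of 6 GABA genes 2 lay below the lower line.

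Of 11 tested genes of DNA replication, 10 were at least 2-fold higher in mutant *dlx*-positive cells, with a median ratio of 4.37, against 2.65 in all other neurons and 0.930 over all genes tested. Summed over the list, replication transcripts went from 779 CPM in siblings to 2920 CPM in mutants (ratio 3.75, 3.37 to 4.18). In *dlx*-negative GABAergic neurons the same sum had a ratio of 7.40. *pcna*, the sliding clamp of DNA polymerase, had 55 UMIs in 10 sibling cells and 277 UMIs in 47 mutant cells, a ratio of 4.41 (3.29 to 6.0). *rrm2*, a subunit of ribonucleotide reductase whose symbol stands for more than 1 gene row, had 66 UMIs in 8 cells and 329 in 37. *dut*, which removes dUTP, had 39 UMIs in 6 cells and 243 in 46. In each of these the mutant transcripts were spread over 4 or more times as many cells.

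Of 20 tested genes of mitosis (33 on the list had 10 or more UMIs), 19 were at least 2-fold higher, with a median ratio of 8.07 against 2.53 in other neurons. Summed over the list, the ratio was 3.14 (2.99 to 3.30) in *dlx*-positive cells and 3.39 (3.31 to 3.47) in *dlx*-negative GABAergic neurons. The exception was the histone gene *h2az2b* with 1.92. *mki67*, a chromosome surface protein of cycling cells, had 18 UMIs in 5 sibling cells and 222 UMIs in 29 mutant cells, which is 32.9 and 355 CPM (ratio 10.8, 6.68 to 18.6), and its ratio was 2.37 in other neurons. In the sibling library 1 cell held 14 of the 18 *mki67* UMIs, all 19 of *nusap1* and 11 of the 12 of *top2a*, so the sibling level of these 3 genes rested mostly on that cell. The summed sibling level of the list lay mostly elsewhere, since *h2az2b*, *hmgb2b* and *hmgb2a* gave 1084, 504 and 216 of its 2002 UMIs. In mutants, *nusap1*, a spindle protein, was found in 25 cells with 208 UMIs. *top2a*, which untangles DNA, was found in 21 mutant cells with 90 UMIs. No mutant cell held more than 18.5% of the UMIs of these 3 genes. With the same number of UMIs drawn from each cell, *mki67* was found in 0.794% of sibling and 11.5% of mutant *dlx*-positive cells. In *dlx*-negative GABAergic neurons it was found in 1.58% and 10.1%. For *nusap1* the shares were 0.794% and 11.5% against 1.76% and 10.3%, and for *top2a* 0.794% and 12.2% against 1.23% and 5.45%. Higher shares of these 3 genes in mutants were thus not particular to the *dlx*-positive cells. The mitotic cyclin gene *ccnb1* had 2 and 51 UMIs, and *cks2*, which binds the cyclin-dependent kinase, 2 and 54, both among the 10 highest ratios of all genes.

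Counting cells gave the same order. At least 10 genes of mitosis, not counting *hmgb2a*, *hmgb2b* and *h2az2b*, were found in 1 of 134 sibling and 25 of 137 mutant cells. Leaving out these 3 genes was a choice made after seeing the data. Of the 25 mutant cells, 13 also had *gad1b*, *gad2* or *slc32a1*. Shares were then compared after drawing 1000 UMIs from every cell, which left 126 sibling and 131 mutant cells. At least 2 genes of both cell cycle lists together were found in 57.9% of sibling and 78.6% of mutant cells, a ratio of 1.36 whose interval (0.996 to 1.86) includes 1. *hmgb2a*, *hmgb2b* and *h2az2b* are chromatin genes that were found in many sibling cells. Without these 3 genes, a choice made after seeing the data, the shares were 6.35% (2.78 to 12.1) and 44.3% (35.6 to 53.2), a ratio of 6.97 (3.31 to 16.9), and without thinning they were 29.1% and 68.6%. At least 2 replication genes alone were found in 5.56% and 37.4%.

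With the 3 chromatin genes left out, the difference was also seen in *dlx*-positive cells with a GABA marker and in the other classes of neurons. Among *dlx*-positive cells with *gad1b* or *gad2*, the share with 2 of the cell cycle genes without the 3 chromatin genes was 4.05% (0.844 to 11.4) in siblings and 41.3% (29.0 to 54.4) in mutants. In *dlx*-negative GABAergic neurons it was 4.23% and 41.6%, and in glutamatergic neurons 5.50% and 35.0%. In macrophages and endothelial cells without *elavl3* and *elavl4* (70 and 45 cells) the shares were 38.6% and 35.6%, at median depths of 6987 and 7453 UMIs. Their ratio of 0.922 had a wide interval (0.464 to 1.77). At full depth the shares were 59.5% and 71.1%, and those with 2 or more replication genes 45.9% and 66.7%. These cells may express cell cycle genes themselves, so their shares do not measure free RNA of those genes. Over all reference cells at full depth, *mki67* was found in 15.7% and 20.8% and *pcna* in 36.1% and 52.1%. The part of free RNA in the shares of *dlx*-positive cells was not tested.

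**Figure D4:**
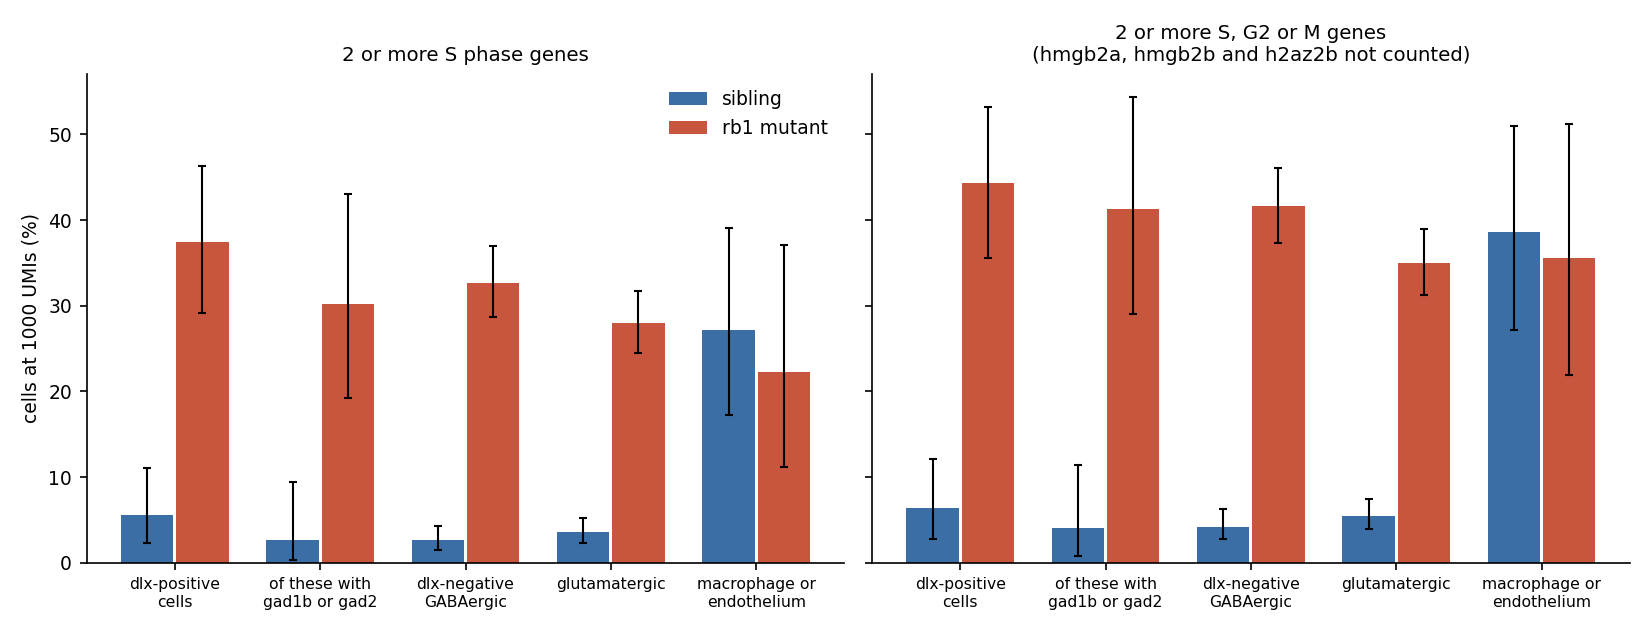
Share of cells (%, y axis) with UMIs of 2 or more replication genes (left) and of 2 or more genes of both cell cycle lists without *hmgb2a*, *hmgb2b* and *h2az2b* (right), each cell thinned to 1000 UMIs, with 95% Clopper-Pearson intervals. In *dlx*-positive cells the shares were 5.56% and 37.4% on the left and 6.35% and 44.3% on the right. In macrophages and endothelial cells (70 and 45 cells) on the right they were 38.6% and 35.6%. Both choices of genes were made after seeing the data.

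Among the 10 highest ratios were further genes with few sibling UMIs. The histone gene *hist1h4l* had 14 UMIs in siblings and 287 in mutants, and *dlgap5*, a spindle protein, 3 and 69. *zgc:110425*, si:dkey-108k21.10, *zgc:194627* and CABZ01058261.1, which the deposited tables give without a gene name, had 0 to 3 UMIs in siblings and 51 to 77 in mutants. *stmn1a*, which binds tubulin, was the gene on the list of neuron growth that passed 2-fold, with 57 UMIs in 30 sibling cells and 393 in 64 mutant cells (ratio 6.04, 4.57 to 8.12, other neurons 2.38). The other 22 tested genes of that list, *elavl3*, *elavl4*, *gap43* and *tubb5* among them, stayed within 2-fold, and the list had a median ratio of 0.880 against 0.876 in other neurons. *kmt5ab*, which encodes a histone H4 methyltransferase of the Kmt5a type, had 0 UMIs in sibling cells and 24 in 12 mutant cells, at least 7.01-fold higher against a floor of 3 UMIs.

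Of 20 tested genes of neural precursors and Notch signalling, 9 were at least 2-fold higher in mutants and 0 were lower, with a median ratio of 1.57 against 1.17 in other neurons. The summed level of the list had a ratio of 1.91 in *dlx*-positive cells and 0.972 in *dlx*-negative GABAergic neurons. Only the latter class required *gad1b* or *gad2*, and the difference between the classes was not tested. The 9 genes were 7 *her* genes, *dla* and *insm1b*. *her4.2*, a bHLH repressor induced by Notch, had 319 UMIs in 19 sibling cells and 1241 UMIs in 32 mutant cells (ratio 3.41, 3.01 to 3.87), and 1.28 in other neurons. *her4.1* had 258 UMIs in 13 cells and 734 in 24 (2.49, 2.16 to 2.88). The single *her4* genes and *her15.1* are near-identical copies whose reads the counting could split, and *her4.2* stands for more than 1 gene row, so their single values are uncertain. Any *her4* gene was found in 25 of 134 sibling and 36 of 137 mutant cells (18.7%, 12.5 to 26.3, and 26.3%, 19.1 to 34.5). After thinning to 1000 UMIs, *her4.1* was found in 7.14% of sibling and 16.8% of mutant cells, and *her4.2* in 10.3% and 17.6%.

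*her12*, another bHLH repressor of the family, had 10 UMIs in 4 sibling cells and 135 in 11 mutant cells, and 1 sibling cell held 70.0% of its 10. *her6* had 17 UMIs in 3 cells and 71 in 16, with 88.2% of the sibling UMIs in 1 cell. *dla*, a Delta ligand that activates Notch in neighbouring cells, had 31 UMIs in 14 cells and 97 in 24 (2.74, 1.81 to 4.25). *insm1b*, a zinc finger gene of newly born neurons, had 62 in 31 cells and 183 in 44 (2.59, 1.93 to 3.51). *hes6*, which is made in differentiating neurons, was lower, with 114 and 90 UMIs (0.691, 0.519 to 0.920), and *sox2* was level with a ratio of 1.01. *her15.1* had a ratio of 2.29 over all *dlx*-positive cells but 0.693 among those with *gad1b* or *gad2*.

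Of 6 tested GABA genes, 2 were at least 2-fold lower in mutants and 0 were higher, and all 6 ratios were under 1. Their median was 0.674, against 0.546 in other neurons. *gad1b* had 79 UMIs in 33 sibling cells and 31 UMIs in 20 mutant cells, that is 144 and 49.6 CPM (ratio 0.344, 0.219 to 0.527). Of these, 5 sibling and 0 mutant cells had 5 or more UMIs. *abat*, the GABA transaminase, had 33 and 18 UMIs (0.478, 0.253 to 0.873). *gad2* had 246 and 181 UMIs (0.644, 0.529 to 0.784), *slc32a1* 139 and 112 (0.706, 0.545 to 0.912), and the GABA transporters *slc6a1a* and *slc6a1b* had ratios of 0.736 and 0.816. At full depth *gad2* was found in 54.5% of sibling and 44.5% of mutant cells, and in 23.8% and 24.4% once cells were thinned to 1000 UMIs. *slc32a1* was found in 50 and 63 cells at full depth, and in 18.3% and 19.1% of thinned cells. Both *gad* genes were found together in 29 sibling and 15 mutant cells, and *slc32a1* without either in 9 and 22.

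In the mutant library *gad2* stood at 333 CPM in cells with under 2 cell cycle genes (median 3692 UMIs). It stood at 245 CPM in cells with 2 or more, which were deeper (median 5472.5 UMIs). The comparison was therefore repeated in cells with under 2 cell cycle genes at 1000 UMIs, the 3 chromatin genes left out (118 sibling and 73 mutant cells), an alternative chosen after seeing the data. There the ratio was 0.546 (0.330 to 0.873) for *gad1b*, 0.697 (0.544 to 0.887) for *gad2*, 0.774 (0.561 to 1.06) for *slc32a1* and 1.21 (0.966 to 1.52) for *slc6a1b*. The ratio of *slc6a1b* thus turned from 0.816 to above 1, with an interval that includes 1 but not 0.816. In cells with 2 or more cell cycle genes (8 sibling and 58 mutant cells) the ratio was 1.76 (0.775 to 4.94) for *gad2*, from 6 sibling UMIs, and 2.0 (0.643 to 10.1) for *slc32a1*, from 3, and both intervals include 1. The split uses transcripts that themselves differed between the genotypes. It was made after thinning, which misses transcripts. At full depth, 39 of 134 sibling and 94 of 137 mutant cells had 2 or more of the same cell cycle genes. Some cells in the class with under 2 genes thus had 2 or more at full depth.

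Of 19 tested synapse genes, 1 was at least 2-fold lower in mutants and 0 were higher, with a median ratio of 0.691 against 0.623 in other neurons. Over all tested genes, 92 of 2670 (3.45%) were at least 2-fold lower, so the count of synapse genes lay near that share. The synapse gene that was lower was *nrxn2a*, a presynaptic adhesion protein, with 48 and 27 UMIs (0.493, 0.296 to 0.806). *snap25a* had 214 UMIs in 75 sibling cells and 132 in 51 mutant cells (0.540, 0.432 to 0.674), and 0.714 in cells with under 2 cell cycle genes. Its paralogue *snap25b* had 129 and 169 UMIs (1.15, 0.907 to 1.45). *syt1a*, the calcium sensor of vesicle release, had a ratio of 0.973 (0.823 to 1.15) in *dlx*-positive cells and 0.564 in other neurons.

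**Figure D5:**
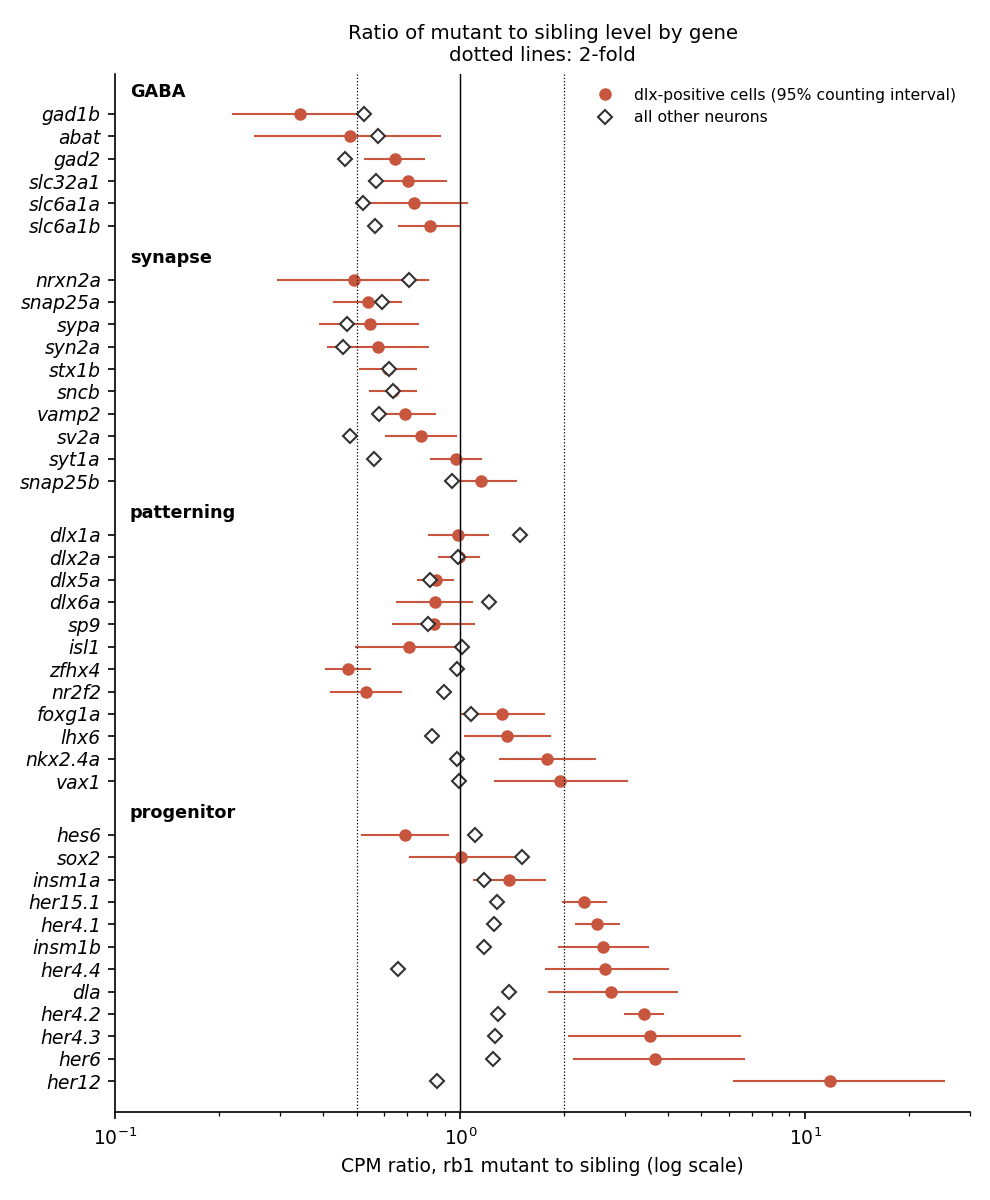
Ratio of mutant to sibling CPM (x axis, log scale) of GABA, synapse, patterning and progenitor genes in *dlx*-positive cells (circles, 95% intervals) and in all other neurons (open diamonds), with dotted lines at 2-fold. *gad1b* lay at 0.344 and *her4.2* at 3.41, while *dlx1a* and *dlx2a* lay at 0.986 and 0.992.

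Of 11 tested Dlx genes and partners, none passed 2-fold, with a median ratio of 0.848 against 0.984 in other neurons. The ratio was 0.986 (0.811 to 1.2) for *dlx1a*, 0.992 (0.870 to 1.13) for *dlx2a*, 0.848 (0.755 to 0.953) for *dlx5a* and 0.843 (0.657 to 1.08) for *dlx6a*, which the rule used. *sp9* had 115 and 110 UMIs in 49 cells each (0.838, 0.639 to 1.1). *gsx1* had 93 UMIs in 11 cells and 150 in 23 (1.41, 1.08 to 1.85).

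Other patterning genes differed in both directions. *zfhx4*, a large zinc finger homeobox protein, had 541 UMIs in 70 sibling cells and 292 in 63 mutant cells (0.473, 0.409 to 0.546) and a ratio of 0.976 in other neurons. It was the only 1 of 13 tested telencephalic factors to pass 2-fold, and the list had a median ratio of 0.821 against 0.899 in other neurons. *nr2f2*, an orphan nuclear receptor, had 200 and 122 UMIs in 44 and 43 cells (0.534, 0.423 to 0.673), against 0.899 in other neurons. *nkx2.4a* had 61 UMIs in 17 cells and 124 in 32 (1.78, 1.30 to 2.46), and *vax1*, a homeobox gene of the preoptic area and optic stalk, 32 in 12 cells and 71 in 17 (1.94, 1.26 to 3.05), both near 1 in other neurons. *foxg1a* had 88 and 133 UMIs (1.32, 1.00 to 1.75). *otpb* had 40 UMIs in siblings and 2 in mutants, but 31 of the 40 lay in 1 cell. None of 10 tested factors of the hypothalamus and prethalamus passed 2-fold, with a median ratio of 0.896 against 1.00 in other neurons.

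Neuropeptide genes were carried by few cells, which limits what the sums can show. At least 10 UMIs of a neuropeptide gene were found in 22 sibling and 15 mutant cells. Of 9 tested genes 4 were at least 2-fold lower and 1 was higher, with a median ratio of 0.503 against 0.692 in other neurons. *galn*, the galanin precursor, had 560 UMIs in 5 sibling cells and 441 in 4 mutant cells, and *cort*, a somatostatin relative, 328 in 10 and 297 in 12. The enkephalin precursor *penka* had 207 UMIs in 8 cells and 24 in 3. *ccka* had 239 UMIs in 2 sibling cells, of which 1 held 99.6%, and 119 in 3 mutant cells. The gene that was higher was *pmch*, for melanin-concentrating hormone, and like *pmchl* it came from 1 mutant cell with 407 and 799 UMIs. *kiss2* had 60 UMIs in 2 sibling cells and 0 in mutants, with 98.3% of the 60 in 1 cell.

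Of 8 tested genes of p53 targets and apoptosis, 2 were at least 2-fold lower and 0 were higher, with a median ratio of 0.776 against 0.676 in other neurons. These were *mcl1a*, an inhibitor of apoptosis, with 335 and 180 UMIs (0.471, 0.390 to 0.566), and *gadd45ba*, a stress response gene, with 199 and 105 (0.462, 0.361 to 0.588). Their ratios in other neurons were 0.652 and 0.523.

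Epidermal keratin transcripts were lower in the mutant library, in *dlx*-positive cells as in other neurons. *krt4* had 61 UMIs in 38 sibling cells and 13 in 11 mutant cells (0.187, 0.0941 to 0.343), and its ratio was 0.229 in other neurons. *cyt1*, *krtt1c19e*, *krt5* and *krt91* had 38 to 56 UMIs in sibling and 1 to 5 in mutant *dlx*-positive cells. In macrophages and endothelial cells *krt4* was found in 40.5% of sibling and 2.22% of mutant cells, and the part of free keratin RNA in these values was not tested. The other genes among the 10 lowest ratios were mostly held by few cells. *rs1a*, the retinoschisin of photoreceptors, had 59 UMIs in 3 sibling cells, of which 1 held 84.7%, and 11 in 3 mutant cells. The metallothionein *mt2* had 45 UMIs in 5 cells and 8 in 2, the parvalbumin *pvalb6* 106 in 7 and 31 in 7, and the synuclein *sncgb* 94 in 27 and 29 in 15. *ucmab*, a cartilage matrix gene, had 223 and 67 UMIs in 5 cells each, and only 1 and 0 of these UMIs lay outside the cells with cartilage genes.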

How the data were processed

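UMI counts per gene and barcode were deposited by the authors as 1 sparse matrix per library. The labels name Cell Ranger 5.1.0, Seurat 3.1.1 and genome build GRCz11. Deposited dense copies held the same counts. The libraries had 8557 and 8799 barcodes, of which 8150 and 8511 passed the limits with 32511465 and 36261314 UMIs (median 3410 and 3698 per barcode). Rows with the same symbol were summed (546 symbols). For each class of cells the counts of a gene were added up and expressed as CPM.

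Levels had exact Poisson intervals, ratios exact conditional binomial intervals and shares Clopper-Pearson intervals, all at 95%. With 1 library per genotype no test was possible, and genes with 50 or more UMIs past 2-fold were counted. Ratios against 0 UMIs used a floor of 3 UMIs per library. Doublets were not removed. As an alternative, cells with the highest 7.5% of Scrublet scores were left out. Other alternatives changed the limits, the rule, the scaling, the weight of cells and the minimum of UMIs. The members and gene lists were chosen with earlier results of these data known. Genes were named from the lists (10 or more UMIs), from the 10 highest and 10 lowest ratios between genotypes, and from the 15 highest and 10 lowest against *dlx*-negative GABAergic neurons. A gene in few cells was marked by the share of its UMIs in 1 cell. Python 3.11.15, numpy 2.4.6, scipy 1.17.1, pandas 2.3.3, scanpy 1.11.5 and matplotlib 3.10.9 were used, and calculations were checked on simulated counts. The values of 1 transcription factor on the lists are not reported here.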

Additional observations from a re-analysis of the deposited data

Results flagged for a closer look

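*her12* stood on opposite sides of the *dlx*-negative GABAergic neurons in the 2 libraries. In siblings it had 10 UMIs in the *dlx*-positive cells (18.3 CPM) and 133 in the *dlx*-negative class (55.6 CPM), a ratio of 0.328 (0.154 to 0.623). In mutants it had 135 UMIs (216 CPM) and 93 (38.4 CPM), a ratio of 5.63 (4.29 to 7.42). It stands out because the direction turned between the genotypes. The difference between the genotypes was not tested, since there was 1 library of each. The sibling UMIs lay in 4 cells, of which 1 held 70.0%, and the mutant UMIs in 11 cells, of which 1 held 34.1%.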

How the results depend on the processing

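No paired analysis was possible because there was 1 library per genotype and no replicate. Of 78 recomputed counts and shares, 49 stayed within 1.5 times the main value or its counting error and 29 did not. The number of *dlx*-positive cells became 72 in siblings and 82 in mutants with 3 *dlx* genes required, 77 and 66 with *gad1b* or *gad2* required, and 60 and 61 with cells thinned to 1000 UMIs before the rule. The count of genes higher in mutants became 163 with all deposited barcodes, 171 without *elavl3* or *elavl4* required, 50 with a *gad* gene required, 317 with a minimum of 20 UMIs and 54 with 100. The count of lower genes became 152, 178, 53, 317 and 32 under the same changes, and 61 with 3 *dlx* genes required. Against *dlx*-negative GABAergic neurons, the count of higher genes became 306 with all barcodes, 84 with 3 *dlx* genes, 394 without *elavl* genes, 105 without the cells with cartilage genes, 339 at 20 UMIs and 99 at 100 UMIs. The count of lower genes became 564 without *elavl* genes, 632 at 20 UMIs and 212 at 100. The mutant to sibling ratio of cells with 2 cell cycle genes, 1.36, became 2.96 with 3 genes required, 6.97 without *hmgb2a*, *hmgb2b* and *h2az2b*, and 6.73 with replication genes alone. The last 2 and the exclusion of cartilage cells were chosen after seeing the data. Of 512 recomputed ratios over 52 named genes, 450 were the same within the counting error, 61 moved and 1 turned, *her15.1*, to 0.693 with a *gad* gene required. Turning was counted only for genes past 2-fold in the main result, so that of *slc6a1b*, described above, was not counted as such. With a *gad* gene required, few sibling UMIs of the cell cycle genes were left, and ratios became 115 for *mki67* (20.1 to 4568), 16.5 for *pcna* and 119 for *dut*. With 3 *dlx* genes required they became 76.5, 27.9 and 145. The ratio of *her12* became 30.3 with 3 *dlx* genes and 3.26 without *elavl* genes required, and that of *her4.1* 4.11 with a *gad* gene. The ratio of *penka* became 0.0269 with high doublet scores left out. The cause of these changes was not tested.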
